A study of Homo sapiens with 4 samples.

Results

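The epithelial junction genes described here are 29 protein-coding genes taken from a fixed list of tight junction, adherens junction, desmosome, polarity and epithelial splicing or transcription genes, out of 19970 protein-coding genes of the RefSeq gene table used. The rule uses no measured value, but the list was drawn up with earlier results of these data known. Their chromatin was followed through 218 of the 122856 open regions of the data set, of which 110021 could be assigned to a protein-coding gene. A region belonged to a gene where it overlapped the gene body, or where that gene was the nearest protein-coding gene within 100 kb.

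The assay was ATAC-seq, which uses a transposase (Tn5) to insert sequencing adapters into accessible DNA, and the deposited values are peak intervals of single libraries. The cells were HCT116, an established human colorectal carcinoma line, and both groups were stable cells made with lentivirus and selected with puromycin. The 2 control libraries came from cells with the empty pSin vector (pSin-Pur-MCS-Puro), and the 2 FOXD2 libraries from cells with a pSin vector that expresses full-length FOXD2, a transcription factor of the forkhead family. Whether replicate libraries stem from separate cultures is not in the labels, and their spread may therefore be technical only.

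Epithelial sheets are held together by 3 kinds of junction. Tight junctions seal the space between cells with claudins, occludin and their cytoplasmic scaffolds, adherens junctions couple cells through classical cadherins, and desmosomes tie desmosomal cadherins through plakins and plakophilins to keratin filaments. Many of these genes are silenced during epithelial-mesenchymal transition by the SNAI and ZEB repressors, which bind the E-box CAGGTG, while the OVOL factors and the ESRP splicing regulators help to keep the epithelial state. In the intestine these junctions form the barrier between the lumen and the tissue.

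The lists held 77752 and 72796 intervals in the controls and 82739 and 64675 with FOXD2, so the shortest and the longest list were both FOXD2 libraries. In the 39933 regions found in all 4 libraries the median −log10 q, the peak caller's measure of significance, was 25.9 and 24.7 in the controls against 22.8 and 17.7 with FOXD2. For that reason strength is given here as a percentile, the rank of a region's −log10 q among those 39933 regions in the same library, with 100 as the strongest. Percentiles say nothing of a shift that all regions share, and the read depth is unknown. Of 8 markers of colon epithelium, 5 had an interval at a gene end in every library (CDX1, CDX2, KRT8, KRT18 and LGALS4), whereas KRT20, VIL1 and CDH17 did not. The same held for 0 of 5 leukocyte markers, 2 of 5 fibroblast markers (COL1A1 and COL1A2) and 1 of 5 endothelial markers (KDR).

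The promoters that the results turn on are shown first, as the 250 bases before the annotated start, read 5′ to 3′ along the gene, from the RefSeq promoter table (GRCh38.p14). RAB25 (chr1:156060910-156061159, plus strand) and DSP (chr6:7541421-7541670, plus strand) are shown because their start regions ranked higher in both FOXD2 libraries, and DSG2 (chr18:31497927-31498176, plus strand) because its start region ranked lower. The farthest start of TJP1 (chr15:29969050-29969299, minus strand) is shown as a start with little open chromatin. Capitals mark the E-box CAGGTG or its reverse complement CACCTG.
RAB25: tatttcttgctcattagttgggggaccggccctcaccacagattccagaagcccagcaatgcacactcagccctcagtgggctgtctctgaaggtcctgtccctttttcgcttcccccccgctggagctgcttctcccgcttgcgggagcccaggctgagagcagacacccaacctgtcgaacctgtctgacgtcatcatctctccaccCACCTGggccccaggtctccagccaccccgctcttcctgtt
DSP: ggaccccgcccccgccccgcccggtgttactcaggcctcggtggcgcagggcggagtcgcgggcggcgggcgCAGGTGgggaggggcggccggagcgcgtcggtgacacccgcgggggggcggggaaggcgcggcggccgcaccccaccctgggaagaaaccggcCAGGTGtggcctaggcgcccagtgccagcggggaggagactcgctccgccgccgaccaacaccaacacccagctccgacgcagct
DSG2: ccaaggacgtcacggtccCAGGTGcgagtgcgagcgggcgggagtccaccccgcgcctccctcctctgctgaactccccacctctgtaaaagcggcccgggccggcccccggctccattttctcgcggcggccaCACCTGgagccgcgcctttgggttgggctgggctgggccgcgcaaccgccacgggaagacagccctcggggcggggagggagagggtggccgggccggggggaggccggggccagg
TJP1: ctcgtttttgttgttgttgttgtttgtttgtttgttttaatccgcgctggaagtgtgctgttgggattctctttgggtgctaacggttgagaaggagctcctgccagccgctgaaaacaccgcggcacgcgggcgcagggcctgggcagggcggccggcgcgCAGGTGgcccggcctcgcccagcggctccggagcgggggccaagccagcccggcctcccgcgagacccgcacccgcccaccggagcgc

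A start of TJP3 (chr19:3708134-3708383, plus strand) is shown for the largest difference in percentile among the gene ends that ranked higher, with capitals on the GC box GGGCGG or its complement CCGCCC. CLDN4 (chr7:73830746-73830995, plus strand) carries capitals on the AP-1 motif TGANTCA, and PERP (chr6:138107420-138107669, minus strand) on the forkhead motif TGTTTAC, the kind of sequence that forkhead factors bind.
TJP3: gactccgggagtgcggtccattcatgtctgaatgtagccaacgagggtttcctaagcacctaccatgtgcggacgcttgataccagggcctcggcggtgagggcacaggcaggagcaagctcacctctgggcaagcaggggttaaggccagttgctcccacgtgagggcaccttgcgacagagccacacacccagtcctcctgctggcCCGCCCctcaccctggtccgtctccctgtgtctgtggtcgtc
CLDN4: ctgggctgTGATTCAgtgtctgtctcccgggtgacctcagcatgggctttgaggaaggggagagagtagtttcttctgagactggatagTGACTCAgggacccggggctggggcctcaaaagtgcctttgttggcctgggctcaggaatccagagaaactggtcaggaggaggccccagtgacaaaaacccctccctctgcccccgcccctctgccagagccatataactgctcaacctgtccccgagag
PERP: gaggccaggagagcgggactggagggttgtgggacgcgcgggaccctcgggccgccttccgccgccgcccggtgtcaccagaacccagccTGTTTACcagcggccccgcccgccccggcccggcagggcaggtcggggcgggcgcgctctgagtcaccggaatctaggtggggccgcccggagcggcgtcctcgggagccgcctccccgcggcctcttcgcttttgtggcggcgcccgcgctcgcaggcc

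Of the 29 genes, 17 had entries in the promoter table, giving 25 windows of 300 bases (250 before and 50 after a start). The 12 without an entry were CDH1, CDH3, EPCAM, ESRP1, ESRP2, OVOL1, OVOL2, PKP2, PKP3, F11R, LLGL2 and MAL2. The motif counts therefore say nothing of these genes. The E-box was found on either strand in 12 of the 25 windows (48.0%), from 11 genes, beside 20.0% of all 22131 protein-coding windows of that length. The windows of OCLN overlap each other, so they share sequence. CRB3, the apical polarity protein Crumbs 3, and CLDN7, a claudin, each held 5 E-boxes in one window, a number reached by 12 windows (0.0542%) of the whole table. The E-boxes are shown with 9 bases to each side, in capitals, ordered from the farthest upstream, for CRB3 (plus strand, chr19:6464034-6464225) and CLDN7 (minus strand, chr17:7262459-7262661).
CRB3: ctcgcaatgCAGGTGtaaggtccc
CRB3: tccccctcaCACCTGcgcgcttcc
CRB3: gtcccgttaCAGGTGcgcccacag
CRB3: agcgaggctCAGGTGcacaagccg
CRB3: gcgctctccCAGGTGagtgactaa
CLDN7: cttcctcctCACCTGggcaaggag
CLDN7: cttccggttCAGGTGagtgtccct
CLDN7: acatatactCAGGTGcgccccacc
CLDN7: ggtgcgcccCACCTGtccgcccgc
CLDN7: gtccgcccgCACCTGctggctcac

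Other motifs were counted in the same way. A forkhead sequence (TGTTTAC or TGTTTGC, either strand) lay in 4 windows (16%; DSC2, JUP, PERP and TJP1) beside 6.11% of all windows. The AP-1 motif lay in 2 (8%; CLDN4 and PERP) beside 6.15%, the grainyhead motif AACNGGTT in 1 (4%; CGN) beside 1.66%, and the GC box in 19 (76.0%) beside 56.3%. In the members' windows no hit of one motif overlapped a hit of another, while 4 pairs of GC boxes overlapped each other. A match is a match of letters only and shows no binding.

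The gene ends of this set were open in both groups. An interval lay within 1000 bp of a gene end in all 4 libraries for 28 of the 29 genes, beside 66.2% of all protein-coding genes. No member had open ends in both FOXD2 libraries alone or in both controls alone, patterns found for 0.466% and 0.851% of all genes. The exception was OVOL2, a zinc-finger repressor that guards epithelial identity. Its end region (chr20:18058891-18059351) had a −log10 q of 21.6 and 8.21 in the controls, 7.23 in FOXD2 replicate 1, and no interval in FOXD2 replicate 2. The groups are therefore not separated at OVOL2 by presence, since 1 FOXD2 library had the interval. A further region inside OVOL2 (chr20:18056377-18058088), just outside the 1000 bp window of the same end, was found in all 4 libraries. Its percentiles were 19.1 and 27.3 in the controls and 56.9 and 39.7 with FOXD2, so both FOXD2 libraries lay above both controls there.

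**Figure D1:**
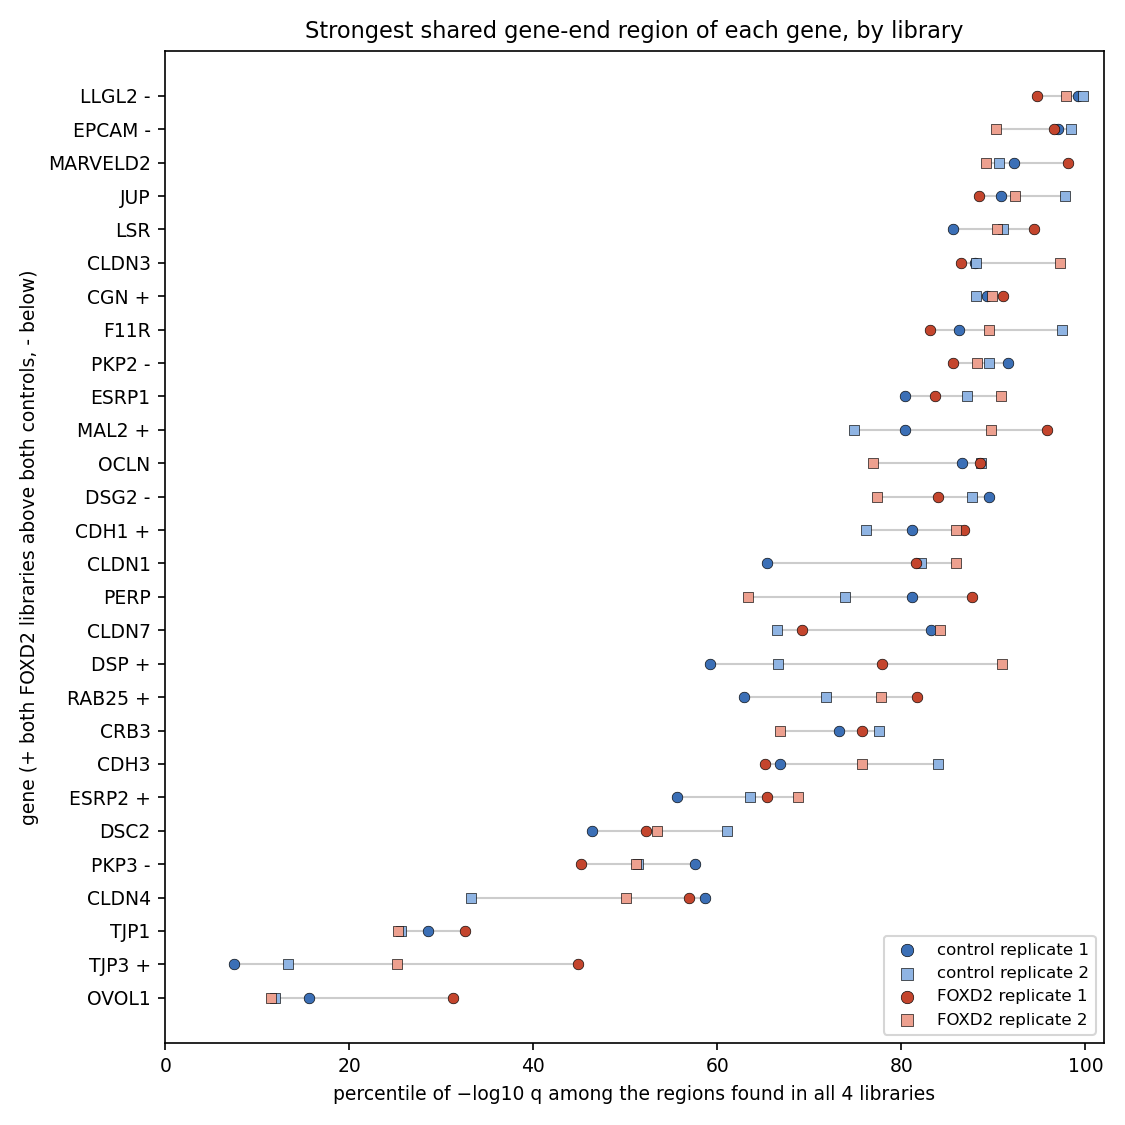
Percentile of the strongest gene-end region found in all 4 libraries, for each member gene that has one (x axis, percentile of −log10 q among 39933 shared regions; 1 point per library, controls in blue and FOXD2 in red, replicate 1 as circles and replicate 2 as squares; grey lines span the 4 values). A plus marks the 7 genes with both FOXD2 points above both control points and a minus the 5 in the reverse order; the groups overlap for the other 16 of 28.

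Strength at these ends was compared through the strongest region shared by all libraries, available for 28 genes. The median percentile of the members was 80.8 and 79.8 in the controls and 83.4 and 85.1 with FOXD2, beside 81.4, 81.2, 81.3 and 80.9 over 13104 genes with such a region. A gene end ranked higher where both FOXD2 percentiles exceeded both control percentiles, which held for 7 members beside 16.4% of all these genes. It ranked lower in the reverse case for 5 members beside 19% of all, and the groups overlapped for the other 16. CGN is among the 7 only through a region over its neighbour TUFT1. A higher rank need not mean a higher −log10 q. Among the 7, −log10 q itself was above both controls in both FOXD2 libraries only at DSP and TJP3. It was below both controls at CGN, and the groups overlapped at CDH1, MAL2, RAB25 and ESRP2. With 2 libraries against 2 the smallest exact permutation p is 0.333, so no test was made, and the counts only describe these libraries.

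Among the tight junction genes, MARVELD2 (tricellulin, which seals the corners where 3 cells meet) had percentiles of 92.3 and 90.6 in the controls and 98.1 and 89.2 with FOXD2. LSR (angulin-1, which brings tricellulin to those corners) had 85.6 and 91.0 against 94.4 and 90.4. OCLN, the transmembrane protein occludin, had 86.5 and 88.7 against 88.6 and 76.9. At each of these strong promoters the groups overlapped. A weaker region at the other end of LSR (chr19:35267979-35268550) had 19.2 and 31.3 in the controls and 43.5 and 41.8 with FOXD2. Both FOXD2 libraries lay above both controls there.

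The claudins, which form the paracellular strands, spanned a wide range. CLDN3 had 88.0 and 88.1 in the controls and 86.5 and 97.3 with FOXD2. CLDN7 had 83.2 and 66.5 against 69.2 and 84.2, and CLDN1 had 65.4 and 82.1 against 81.6 and 86.0. CLDN4 was the weakest of the 4, with 58.7 and 33.2 against 56.9 and 50.0, and the groups overlapped for every claudin. The CLDN1 end region also overlaps the annotated body of CLDN16. At CLDN7, which has 2 listed starts, the window around the more upstream start held no interval in FOXD2 replicate 1, while the window with the 5 E-boxes was fully covered in every library.

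The ZO scaffolds, which link the strands to actin, had the weakest gene ends of the tight junction genes. TJP3 (ZO-3) had 7.45 and 13.3 in the controls and 44.8 and 25.2 with FOXD2 at chr19:3708156-3708952, the start printed above, so both FOXD2 libraries lay above both controls. A further listed start of TJP3 lies in a much stronger region (chr19:3721400-3721964), at 76.8 and 76.3 against 79.0 and 78.3. The order of the percentiles is the same, but the distance between the groups there is small. On the caller's own scale the direction was reversed, with a −log10 q of 50.2 and 46.1 in the controls and 44.9 and 34.1 with FOXD2.

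TJP1 (ZO-1) has 4 listed starts, on the minus strand. At the farthest one, printed above, an interval over the window was found in control replicate 1 only. A further region just inside that end (chr15:29968316-29968769) had a −log10 q of 7.17 and 7.03 in the controls and 5.77 in FOXD2 replicate 1. It had no interval in FOXD2 replicate 2. TJP1 counts among the 28 genes through its 3′ end (chr15:29698361-29698774), at 28.5 and 25.6 in the controls and 32.6 and 25.3 with FOXD2, where the groups overlapped. The start windows inside the gene lay in a shared region (chr15:29821478-29823178) for 2 starts, with percentiles of 65.3 and 74.0 in the controls and 80.3 and 81.6 with FOXD2, and the window of the remaining start held no interval in any library. The starts of TJP1 with an interval in every library were thus internal to the annotated gene, and both FOXD2 libraries ranked them above both controls.

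CGN (cingulin, a scaffold that binds the ZO proteins) had 83.5 and 79.3 against 80.0 and 73.9 at its start, where the groups overlapped. The region counted for CGN as its strongest end lies at its far end over the neighbour TUFT1, where it had 89.3 and 88.1 against 91.1 and 89.8. CGN counts as ranked higher only through that region, by under a percentile point between the nearest libraries. F11R (JAM-A, an immunoglobulin-like junction protein) had 86.2 and 97.5 against 83.1 and 89.6, with overlap.

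In the adherens junction group, CDH1 (E-cadherin, the core adhesion protein of epithelia) ranked higher in both FOXD2 libraries, with 86.9 and 85.9 beside 81.2 and 76.2 in the controls. EPCAM, an epithelial adhesion molecule, ranked lower, with 96.5 and 90.3 beside 97.0 and 98.4. The distance between the nearest libraries at EPCAM was under a percentile point. Among the strongest gene ends of the members, only that of LLGL2 had a higher mean of the 4 percentiles. CDH3 (P-cadherin) had 66.8 and 83.9 against 65.2 and 75.7, with overlap.

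Desmosome genes were found on both sides. DSP (desmoplakin, the plakin that holds keratin filaments) had 59.2 and 66.6 in the controls and 77.9 and 90.9 with FOXD2, the widest gap between groups among the desmosome genes. Its end region also covers the antisense gene DSP-AS1, and accessibility cannot be given to one of them. DSG2 (desmoglein 2) had 89.5 and 87.6 against 84.0 and 77.3, PKP2 (plakophilin 2) had 91.5 and 89.6 against 85.7 and 88.2, and PKP3 (plakophilin 3) had 57.6 and 51.4 against 45.1 and 51.2. Those 3 ranked lower with FOXD2, PKP3 by less than a percentile point between the nearest libraries. JUP (plakoglobin) had 90.8 and 97.7 in the controls and 88.4 and 92.3 with FOXD2. PERP (a tetraspan desmosome protein) had 81.2 and 73.9 against 87.6 and 63.3, and DSC2 (desmocollin 2) had 46.4 and 61.1 against 52.2 and 53.5. At these 3 ends the groups overlapped.

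Among polarity and traffic genes, LLGL2 (a basolateral polarity protein) had the strongest gene end of the set in both controls, at 99.2 and 99.7, against 94.8 and 97.9 with FOXD2, which ranked lower. MAL2 (apical transcytosis) had 80.4 and 74.8 against 95.8 and 89.7, and RAB25 (an epithelial GTPase of apical recycling) had 62.9 and 71.9 against 81.7 and 77.8. Both ranked higher with FOXD2. CRB3 had 73.2 and 77.6 against 75.7 and 66.8, with overlap.

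ESRP2, a splicing regulator of epithelial isoforms, had 55.6 and 63.6 in the controls and 65.4 and 68.8 with FOXD2 and so ranked higher. Its relative ESRP1 had 80.4 and 87.1 against 83.6 and 90.8, with overlap. OVOL1, the relative of OVOL2, had a weak end in every library, with 15.7 and 11.9 against 31.3 and 11.5.

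Some of these differences depended on the measure of strength or on a library. With ranks of the authors' fold enrichment in place of −log10 q, the groups overlapped at the ends of EPCAM and CGN and at the stronger TJP3 start. The difference of mean percentiles (FOXD2 minus control) became 10.9 in place of 24.6 at the weaker TJP3 start, 4.57 in place of 7.73 at CDH1, −2.66 in place of −6.34 at PKP3 and −13.7 in place of −3.15 at LLGL2. Without control replicate 1 it was 7.47 in place of 12.3 at RAB25, 3.27 in place of 7.48 at ESRP2, 6.60 in place of 11.3 at the inner TJP1 starts and −3.36 at PKP3. Without control replicate 2 it was 4.89 at CDH1 and 1.07 in place of 1.75 at the far end of CGN. Leaving out FOXD2 replicate 1 gave 15.8 at the weaker TJP3 start, 1.06 at the far end of CGN, −1.52 at LLGL2, −7.04 in place of −4.29 at EPCAM, −2.22 in place of −3.62 at PKP2 and −3.17 at PKP3. Leaving out FOXD2 replicate 2 gave 13.1 in place of 21.5 at DSP, −3.99 in place of −7.92 at DSG2 and −1.01 at EPCAM.

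Beyond the gene ends, most regions of the set lay elsewhere. Of the 218 regions, 47 were at a gene end and 171 were away from one. In all, 101 (46.3%) were found in all 4 libraries, beside 34.1% of all regions at protein-coding genes. Away from gene ends this share was 38.6% for the members and 27.1% for all such regions. Single libraries held 160, 140, 155 and 143 of the member regions (control 1, control 2, FOXD2 1 and FOXD2 2), so the groups overlapped, and 64 regions were found in 1 library alone.

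**Figure D2:**
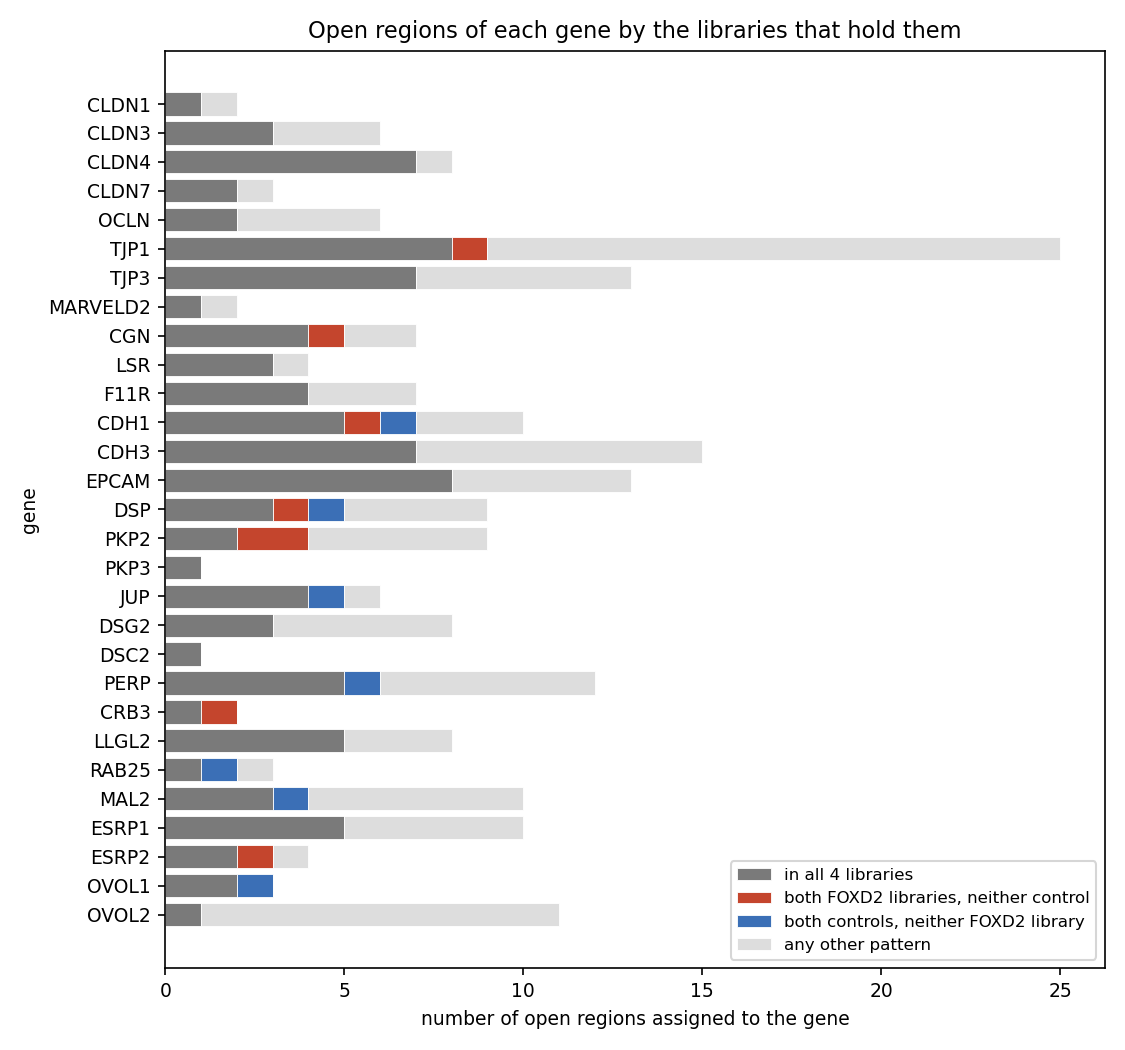
Number of open regions per member gene (horizontal stacked bars, x axis in regions), split into regions in all 4 libraries (dark grey), in both FOXD2 libraries only (red), in both controls only (blue) and in other combinations (light grey). TJP1 has the most regions, 25, and the red and blue segments come to 8 and 7 regions over all genes.

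Gained regions are those with an interval in each FOXD2 library and in no control library, and lost regions are the reverse. The junction genes had 8 gained regions (3.67% of 218), beside a background of 3.87%, and 7 lost regions (3.21%), beside 3.78%. Both shares are close to the background and are no result about these genes. All of them lay away from gene ends, where the members' shares were 4.68% gained and 4.09% lost, beside 4.45% and 4.11% of all regions there. The gained region of CRB3 counts there too, though it lies within 1000 bp of a listed CRB3 start inside the annotated gene. At the gene ends 0 of 47 member regions were gained and 0 were lost, beside 0.975% and 2.12%.

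The counts depend on the lists. With all lists shortened to the length of the shortest, 4 regions instead of 7 were lost and 8 were gained. Leaving out a library loosens the definition: gained regions then numbered 14 and 13 without control replicates 1 and 2, and 26 and 24 without FOXD2 replicates 1 and 2, while lost regions numbered 16, 30, 17 and 12 in the same order.

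The gained regions were modest in strength. The highest single value was inside TJP1 (chr15:29784451-29784771), with a −log10 q of 17.8 and 11.3 in FOXD2 replicates 1 and 2, which placed it at percentile 67.9 and 50.6 of the regions of each list, and the nearest control intervals were 9178 and 36733 bp away. PKP2 had 2 gained regions, one inside the gene (chr12:32836750-32837239; 10.4 and 12.7) and one 9683 bp beyond its higher-coordinate end (chr12:32906460-32906721; 7.23 and 10.3). ESRP2 had one inside the gene (chr16:68234273-68234575; 10.2 and 11.6). None of these 4 had a control interval within 1 kb.

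The other gained regions were lower in at least 1 library. They were inside DSP (chr6:7548701-7549111; −log10 q 13.5 and 5.52), CGN (chr1:151512954-151513363; 7.55 and 6.70), CDH1 (chr16:68778651-68779228; 4.71 and 6.06) and CRB3 (chr19:6464874-6465396; 7.31 and 5.08). The CRB3 region lay only 236 and 220 bp from the nearest control intervals.

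The lost regions also ranged widely. The strongest were 2004 bp beyond the PERP start (chr6:138109423-138109677), with a −log10 q of 11.5 and 17.1 in control replicates 1 and 2, inside RAB25 (chr1:156066375-156066667; 13.1 and 14.7) and inside OVOL1 (chr11:65793175-65793501; 19.6 and 7.17). The RAB25 region had no FOXD2 interval within 3965 bp, whereas a FOXD2 interval lay 462 bp from the OVOL1 region, which also overlaps the annotated gene LOC124902693. JUP had one inside the gene (chr17:41777166-41777950; 9.22 and 4.49), and DSP one 59681 bp before its start (chr6:7481499-7481990; 7.38 and 7.65). The remaining 2, inside CDH1 (chr16:68761657-68762102; 3.95 and 3.18) and 10895 bp below the lower-coordinate end of MAL2 (3.67 and 3.64), were close to the lowest −log10 q in the lists, and the CDH1 one had FOXD2 intervals 277 and 292 bp away.

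By role, and beside the background of 3.87% gained and 3.78% lost, the counts were small. The 11 tight junction genes had 2 gained and 0 lost of 83 regions, and were the only role without a lost region. The 3 adherens junction and adhesion genes had 1 and 1 of 38, and the 7 desmosome genes 3 and 3 of 46. The 4 polarity genes had 1 and 2 of 23, and the 4 splicing and transcription genes 1 and 1 of 28; differences between roles were not tested. CDH1 and DSP had both a gained and a lost region, and 17 genes had neither. The same was not counted over all genes, so this is no result about the members.

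Regions shared by all 4 libraries were compared by percentile. Of the 101 shared member regions, 21 ranked higher in both FOXD2 libraries (20.8%), beside 18.8% of all shared regions at protein-coding genes, and 20 ranked lower (19.8%), beside 19.6%. For the other 60 the groups overlapped. The median difference, mean FOXD2 percentile minus mean control percentile, was −0.371 for the members and −0.277 for all. These shares are near the background in both directions. With 1 library left out, 29 to 41 regions ranked higher and 36 to 42 lower, because 1 library against 2 separates more easily, and without control replicate 1 the higher count was 29, without control replicate 2 39, without FOXD2 replicate 1 39 and without FOXD2 replicate 2 41.

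**Figure D3:**
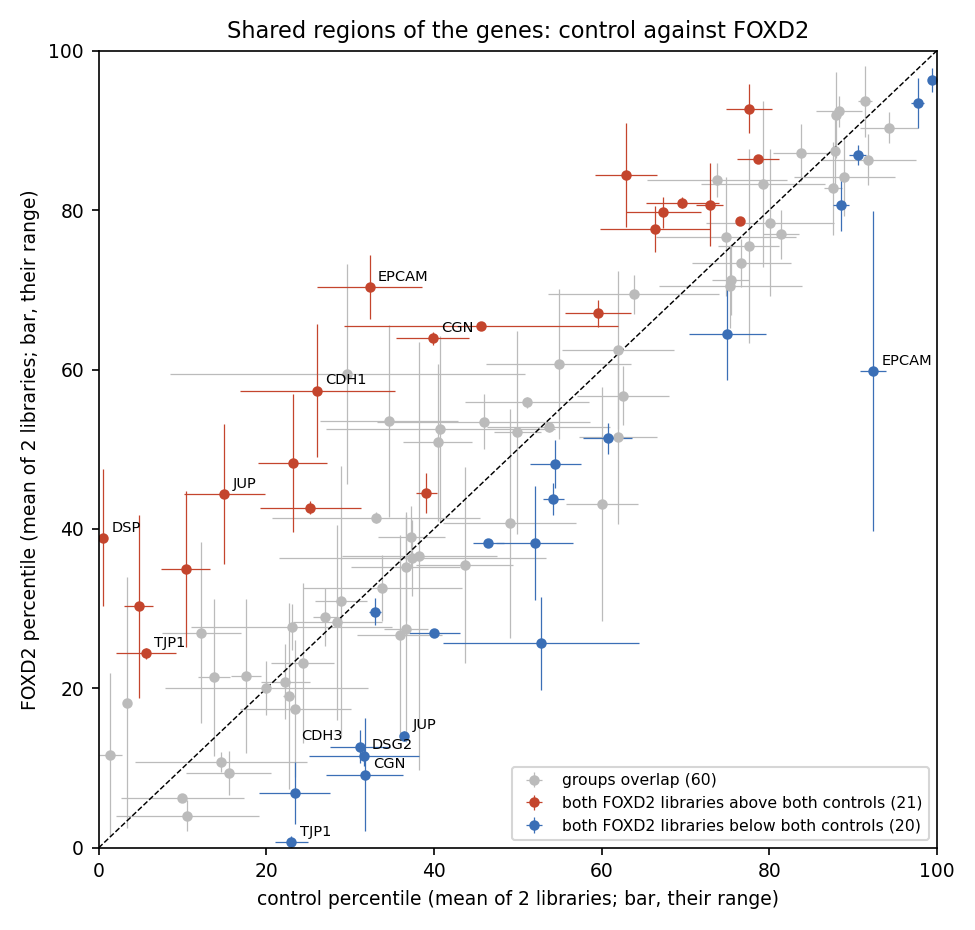
Mean control percentile (x axis) against mean FOXD2 percentile (y axis) for the 101 member regions found in all 4 libraries, coloured by whether both FOXD2 libraries were above both controls (21), below both (20) or overlapped (60). Bars give the range of the 2 libraries, the dashed line marks equal values, and the named points are the 6 regions with the widest gap between the groups in each direction.

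The widest gap upward was at DSP. A region 61362 bp before the DSP start (chr6:7479867-7480309) had percentiles of 0.581 and 0.540 in the controls and 47.5 and 30.3 with FOXD2. Its −log10 q was 4.00 and 3.67 against 21.6 and 11.6, so the direction was the same on the caller's own scale. The lost DSP region named above lies 1190 bp away, so neighbouring intervals of the same stretch went in opposite directions.

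EPCAM had the next gap, 28425 bp below the lower-coordinate end of the gene and inside the lncRNA gene EPCAM-DT (chr2:47339818-47340886), with 38.6 and 26.1 in the controls and 74.4 and 66.3 with FOXD2. A further region of EPCAM-DT about 4 kb nearer to the gene (chr2:47344960-47345657) had 90.9 and 93.9 in the controls and 39.8 and 79.9 with FOXD2, the reverse order, with the FOXD2 libraries far apart. In that region −log10 q was 77.7 and 80.9 in the controls and 18.4 and 35.6 with FOXD2. The shared regions on that side of EPCAM thus included both directions.

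JUP showed the same within the gene. A region at chr17:41771956-41772538 had 10.2 and 19.8 in the controls and 35.6 and 53.2 with FOXD2, and its neighbour at chr17:41773058-41773515 had 36.3 and 36.6 against 14.7 and 13.5. The regions are close neighbours with opposite order. Both were picked for a gap between the groups, so the libraries of each group lay on the same side by selection.

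Inside TJP1, the region chr15:29920585-29920856 had 2.07 and 9.20 in the controls and 25.1 and 23.7 with FOXD2, whereas chr15:29735159-29735605 had 21.0 and 25.0 against 1.46 and 0.0225. CDH1 had a region inside the gene (chr16:68760620-68761384) with 35.3 and 16.8 against 49.0 and 65.7, which lies beside its lost region. CGN had one 14981 bp before the gene (chr1:151494672-151495189) with 44.2 and 35.5 against 63.1 and 64.8, and one inside it (chr1:151534645-151534969) with 27.2 and 36.3 against 16.3 and 2.05. These regions were picked for a gap between the groups, so both libraries of a group lay on the same side by selection.

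Lower regions were also found inside the cadherin genes CDH3 (chr16:68658310-68659016; 34.8 and 27.5 in the controls against 14.8 and 10.6) and DSG2 (chr18:31513388-31513902; 38.2 and 25.1 against 12.8 and 10.3). Ranking by fold enrichment ended the separation at the CDH1 region, where the difference of mean percentiles became 13.8 in place of 31.3. It narrowed the difference to 9.56 from 24.0 at the higher CGN region, to 12.7 from 29.4 and to −6.77 from −22.3 at the JUP regions, and to 10.7 from 18.8 at the higher TJP1 region. The lower EPCAM region differed by −11.9 without FOXD2 replicate 1, in place of −32.6, and the CDH1 region by 20.8 without control replicate 2. Over the genes, 7 members had shared regions in both directions, 6 had only higher ones, 6 only lower ones, and 10 had none outside the overlap. No share over all genes was counted for these numbers, so they only describe the members.

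**Figure D4:**
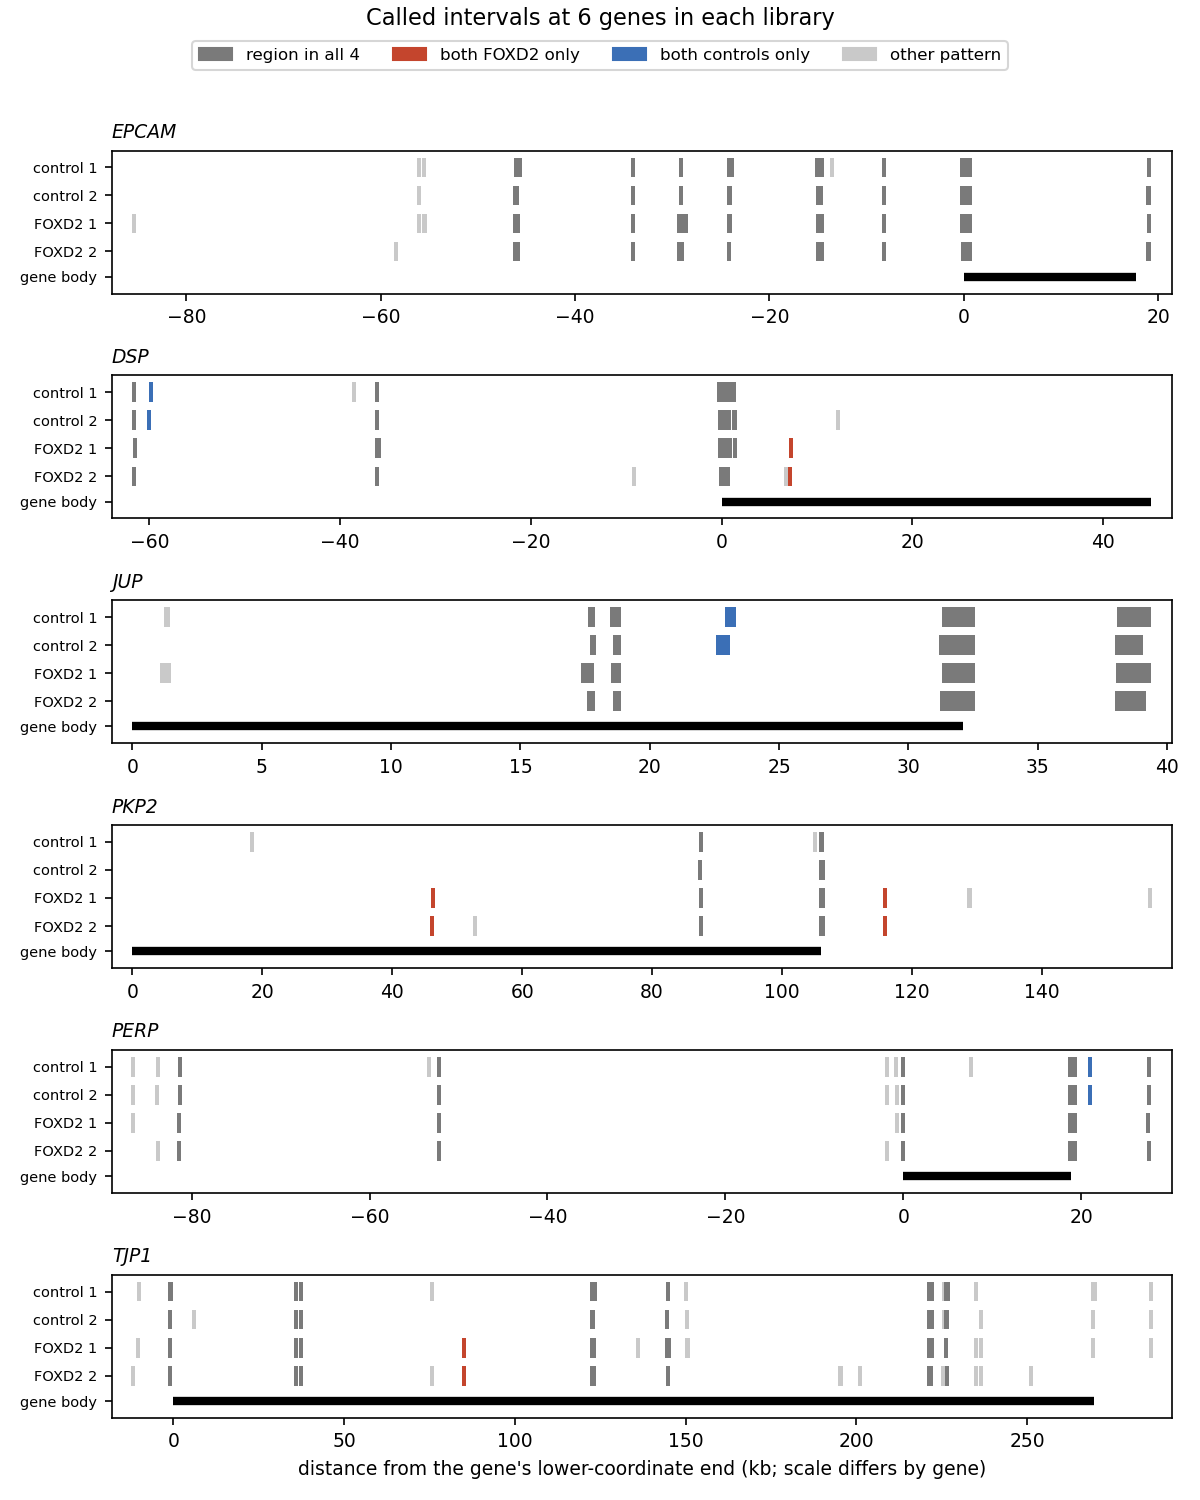
Called intervals at 6 of the genes (EPCAM, DSP, JUP, PKP2, PERP and TJP1) by distance from the gene's lower-coordinate end (x axis, kb, with a scale that differs by gene), with 1 row per library and the gene body as a black bar; the narrowest intervals are widened to be visible. Dark grey marks regions in all 4 libraries, red both FOXD2 libraries only, blue both controls only and light grey other patterns; PKP2 shows 2 red regions, and DSP a blue region far upstream and a red one inside the gene.

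Some regions away from gene ends were strong in every library. The strongest, by the lowest of its 4 percentiles, was inside LLGL2 (chr17:75548911-75550436), with 88.2 and 87.4 in the controls and 82.9 and 92.0 with FOXD2. A region 1096 bp beyond the higher-coordinate end of ESRP2 (chr16:68237223-68238025) had 95.0 and 82.9 against 89.0 and 79.3, and a region 35683 bp before DSP (chr6:7505269-7505988) had 71.9 and 86.6 against 72.9 and 93.6. In these 3 the groups overlapped. The others of the strongest 5 were the inner TJP3 start given above and a region 45507 bp below EPCAM in EPCAM-DT (chr2:47322931-47323804), with 74.5 and 71.2 against 85.9 and 75.5, where both FOXD2 libraries were above both controls. That last difference, 7.82 percentile points between the means, was 1.77 with overlap of the groups when ranked by fold enrichment, and 2.47 without FOXD2 replicate 1.

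Counting regions gene by gene separated the groups for few genes. PKP2 had 4 and 2 regions in the controls and 6 and 5 with FOXD2, and CRB3 had 1 and 1 against 2 and 2. These 2 of 29 genes had more regions in both FOXD2 libraries, beside 7.28% of 18142 genes. PERP had 12 and 10 against 7 and 7, OVOL2 had 6 and 5 against 3 and 2, and OVOL1 had 3 and 3 against 2 and 2. These 3 had fewer, beside 8.58%, and the other 24 overlapped. With lists of equal length 4 genes rather than 2 had more regions.

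Other genes of junctions and polarity gave a setting for these counts. Of 54 such genes outside the set, 40 had an interval at a gene end in all 4 libraries. At PKP1 (plakophilin 1) and MPDZ (a scaffold of tight junctions), 2 of the 54, both controls and neither FOXD2 library had one, a pattern of 0.851% of all genes. DSG1, DSG3, DSG4, CLDN2, CLDN8, CLDN16, CLDN18, ILDR1 and MAL had no gene-end interval in any library, and DSC1, CDH2 and NECTIN4 had one in some libraries only. DSG1, DSG3, DSG4 and DSC1 are desmosomal cadherins known from stratified epithelia. DSC3, a further desmosomal cadherin, had an open gene end in every library. CDH2 is the N-cadherin of mesenchymal and neural cells. The 503 regions of the 54 genes held 25 gained (4.97%) and 23 lost (4.57%), and of 172 shared regions 37 ranked higher and 27 lower. Of 5 repressors of the epithelial program, SNAI1, SNAI2, ZEB1 and TWIST1 had an open gene end in every library and ZEB2 in none. The repressors held 17 and 20 regions in the controls and 25 and 16 with FOXD2, 1 of 32 gained (at ZEB1) and 0 lost, and the groups overlapped.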

How the data were processed

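The 4 libraries, 2 control and 2 FOXD2, were grouped by the treatment in the labels. Per the submitters' processing notes, the authors worked on hg38 with MACS2 2.2.7.1, Bowtie2 2.3.4.1, bedtools, cutadapt 3.4 and Picard; for their roles and settings, and any shift of read ends for Tn5, the sources used here give nothing. The deposited lists hold 1 set of intervals per library, each with the authors' score, fold enrichment, −log10 p and −log10 q. Those values belong to single peaks and served to describe and rank them within a list.

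Intervals on chromosomes 1 to 22 and X were used, which left out 0.208% to 0.251% of each list. Overlapping intervals (1 bp or more) of all libraries were merged into regions with Python 3.11.15, pandas 2.3.3 and numpy 2.4.6, and figures were drawn with matplotlib 3.10.9. Regions were assigned to RefSeq GRCh38.p14 genes as stated above. A gene end is either end of the gene ± 1000 bp; the gene table used gives no exons, and strand was known only for the 17 genes with promoter entries. Read counts and depth are unknown, so no test across regions was made. The region code was tested on simulated intervals.

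Described in full are every gained and lost region and the 6 shared regions with the widest gap in each direction. So are the 5 strongest regions away from gene ends and the strongest gene end of each gene. Added to these are further starts of TJP1, TJP3 and CGN and further regions of OVOL2, LSR and TJP1. The members and lists were chosen with earlier results of these data known. Alternatives were summit windows, other gene-end widths and distances, stricter −log10 q, lists of equal length, listed starts, ranks of fold enrichment, ranks within gene-end and other regions separately, and each library left out.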

Additional observations from a re-analysis of the deposited data

How the results depend on the processing

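The 8 gained regions, 21 shared regions ranked higher and 20 ranked lower stayed within 1.5 times of those counts under every alternative tried except leaving out a library. The 7 lost regions became 4 with lists of equal length and 4 with a −log10 q of at least 5 in both libraries. Genes with more regions in both FOXD2 libraries, 2 in all, became 6 with summit windows, 4 with lists of equal length and 1 with a distance limit of 20 kb. Genes with an end open in every library, 28, became 17 when only listed transcript starts counted, which 17 members have. Leaving out each library in turn gave 13 to 26 gained and 12 to 30 lost regions, 29 to 41 ranked higher and 36 to 42 lower, 4 to 9 genes with more regions and 4 to 9 with fewer (3 in all), and 0 to 1 genes open at an end in the controls only, the 1 being without FOXD2 replicate 1; fewer libraries make each pattern easier to meet. For 27 shared regions whose groups were apart (the 12 with the widest gaps, the gene ends ranked higher or lower, and the further starts and strong distal regions of TJP1, TJP3 and EPCAM), the sign of the difference stayed in all 235 values that could be recomputed; 3 regions gave no value at a −log10 q of 5 or more, 3 with lists of equal length and 2 with summit windows, where no shared region was left. The DSP region with the widest gap upward was among those without a value at a −log10 q of 5 or more and with lists of equal length. The 27 regions were picked because both libraries of a group lay on the same side of the other group. Leaving out a library could therefore hardly change the sign, and the kept sign in those settings is no support. With ranks of fold enrichment the groups overlapped at 5 of the 27 and the difference moved by over 1.5 times at 11. With ranks within gene-end and other regions it moved that far at 10, with no overlap. No paired analysis was possible because the results come from no test. Depth is unknown, and presence or absence of an interval depends on the peak caller's threshold, which limits all counts of gained and lost regions.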
